A study of Mus musculus with 10 samples.

Results

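Expression of 9 genes of iron storage, uptake and export (Fth1, Ftl1, Ncoa4, Tfrc, Steap3, Slc11a2, Slc39a14, Slc40a1 and Heph) was examined in mammary normal fibroblasts (NFs) and mammary tumor cells. The genes were taken by symbol from a table of raw read counts for 55486 genes, and all 9 were found. Levels are given as CPM, counts scaled to the library total. CPM can be compared for 1 gene between libraries, while genes are compared with each other only after division by transcript length.

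The 10 libraries came from 5 gels of collagen and basement membrane extract, each cultured for 7 days. NFs were sorted from mammary glands of pooled 8-week-old female mTmG mice (FVB/n), in which cells are red (Tomato) until Cre recombinase turns them green (GFP), and were split by the surface protein CD26. After 1 week in 2D culture, CD26+ NFs were turned green with a Cre-expressing adenovirus whereas CD26− NFs stayed red, so exposure to the virus and the subset cannot be told apart. Both subsets were mixed in equal parts, without tumor cells in gel 1 and with tumor cells in gels 4 and 5. Gels 2 and 3 held tumor cells alone. The tumor cells carried the WapCre and Cdh1F/F alleles, a model of invasive lobular carcinoma in which Cre is driven in mammary epithelium. Line 13-MCB-17 was used in gels 2 and 4 and line 10-SJK-221 in gels 3 and 5, so each line is 1 culture grown with and without NFs. Cells were sorted by color after culture, giving 2 libraries of CD26− NFs, CD26+ NFs and tumor cells each from co-culture, 2 of tumor cells alone, and 1 of each NF subset alone. The label CD26+ is a label at sorting. Dpp4, which encodes CD26, had 4 to 12 counts in the CD26+ libraries and 0 to 1 count in the CD26− libraries.

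Cells take up iron mainly as transferrin bound to the transferrin receptor. Endosomal reductases of the STEAP family and the divalent metal transporter then bring the metal into the cytosol, where ferritin, a shell of heavy and light chains, stores what is not used. Ferroportin is the iron exporter of mammalian cells, and copper-containing ferroxidases such as hephaestin act beside it. Iron regulatory proteins bind a stem-loop, the iron-responsive element, in several of these mRNAs. In a 5′ UTR the element lets them block translation when iron is scarce, and in the 3′ UTR of the transferrin receptor mRNA it lets them stabilize the message. Translation is not seen in RNA counts.

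Of the 9 genes, 4 matched a strict pattern for such an element in the principal transcript searched, and their sequences are shown. The pattern searched was a bulged C, an upper stem of 5 pairs and the loop CAGTGN, with any last base other than G, on the transcript strand in the UTRs of GENCODE M21 (GRCm38). Each line gives 30 bases, 5′ to 3′, with the loop in capitals.
Slc40a1, 5′ UTR, chr1:45925464-45925493, minus strand: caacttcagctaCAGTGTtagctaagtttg
Fth1, 5′ UTR, chr19:9982732-9982761, plus strand: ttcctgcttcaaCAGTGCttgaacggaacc
Ftl1, 5′ UTR, chr7:45459778-45459807, minus strand: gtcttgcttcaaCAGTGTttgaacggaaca
Tfrc, 3′ UTR site 1, chr16:32631219-32631248, plus strand: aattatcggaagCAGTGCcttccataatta
Tfrc, 3′ UTR site 2, chr16:32631598-32631627, plus strand: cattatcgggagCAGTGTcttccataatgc
Tfrc, 3′ UTR site 3, chr16:32631663-32631692, plus strand: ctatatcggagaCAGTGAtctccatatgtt
Tfrc, 3′ UTR site 4, chr16:32631710-32631739, plus strand: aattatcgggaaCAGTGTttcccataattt

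The pattern was present in a UTR of 94 of 20099 genes searched (0.468%), in the 5′ UTR of 15 genes (0.0746%) and in the 3′ UTR of 79 genes (0.393%). Tfrc was the 1 gene with 3 or more matches. In the other 5 genes the pattern was not in the transcript searched. The search would miss an element whose upper stem is not fully paired, so these 5 are not shown to lack one. As the results below show, the 3 genes with a match in the 5′ UTR and Tfrc did not share 1 pattern of counts.

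Libraries held 14142334 to 18408940 counts, and 3 counts, the most that an observed 0 allows, correspond to 0.163 to 0.212 CPM (counting error only). The 6 fibroblast markers (Col1a1, Col1a2, Col3a1, Dcn, Pdgfra, Pdgfrb) summed to 68430 and 74050 CPM in the NF libraries without tumor cells. Their sum was 22210 to 40430 CPM after co-culture and at most 177 CPM in tumor libraries. The 6 epithelial markers (Epcam, Krt8, Krt18, Krt19, Cldn4, Cldn7) summed to 3002 to 4155 CPM in tumor cells. Their sum was 0.435 and 0.842 CPM in NFs alone, against 99.3 to 265 CPM in NFs from co-culture. From these markers tumor RNA was estimated at 1.97% (CD26−) and 2.82% (CD26+) of the NF libraries of gel 4, and at 2.07% and 5.03% in gel 5. NF RNA in co-cultured tumor libraries was estimated at 0.294% and 0.173%. Among the macrophage markers Ptprc, Adgre1 and Cd163 were at or near 0 in all libraries, whereas Cd68 reached 299 CPM in tumor cells. The list summed to 11.4 and 13.4 CPM in gel 1 NFs against 31.0 to 62.8 CPM in NFs of gels 4 and 5, with Cd68 at 3.48 and 6.53 CPM and at 19.6 to 53.5 CPM, whereas Lyz2 of the same list went from 6.02 and 4.07 CPM to 0.173 to 0.964 CPM. Endothelial markers summed to 4.35 and 9.76 CPM in the former and 8.06 to 24.4 CPM in the latter, and erythroid markers to at most 0.421 CPM in any library. The part of these shifts between NF cultures in the results was not tested.

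Per kilobase of the principal transcript, the ferritin chains were the 2 most abundant of the 9 genes in every library. Fth1 had 777 to 1407 CPM per kb in NFs and 3376 to 12190 CPM per kb in tumor cells, and Ftl1 had 548 to 2105 and 1524 to 3258 CPM per kb. The exporter Slc40a1 had 2.05 to 15.8 CPM per kb in NFs and 3.63 to 6.42 CPM per kb in tumor cells. It ranked 6 of 9 in both libraries of co-cultured CD26+ NFs and 8 or 9 in all others. Heph was the least abundant in tumor cells, at 0.0239 to 0.0687 CPM per kb. Steap3 ranged from 6.38 to 114 CPM per kb in NFs.

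**Figure D1:**
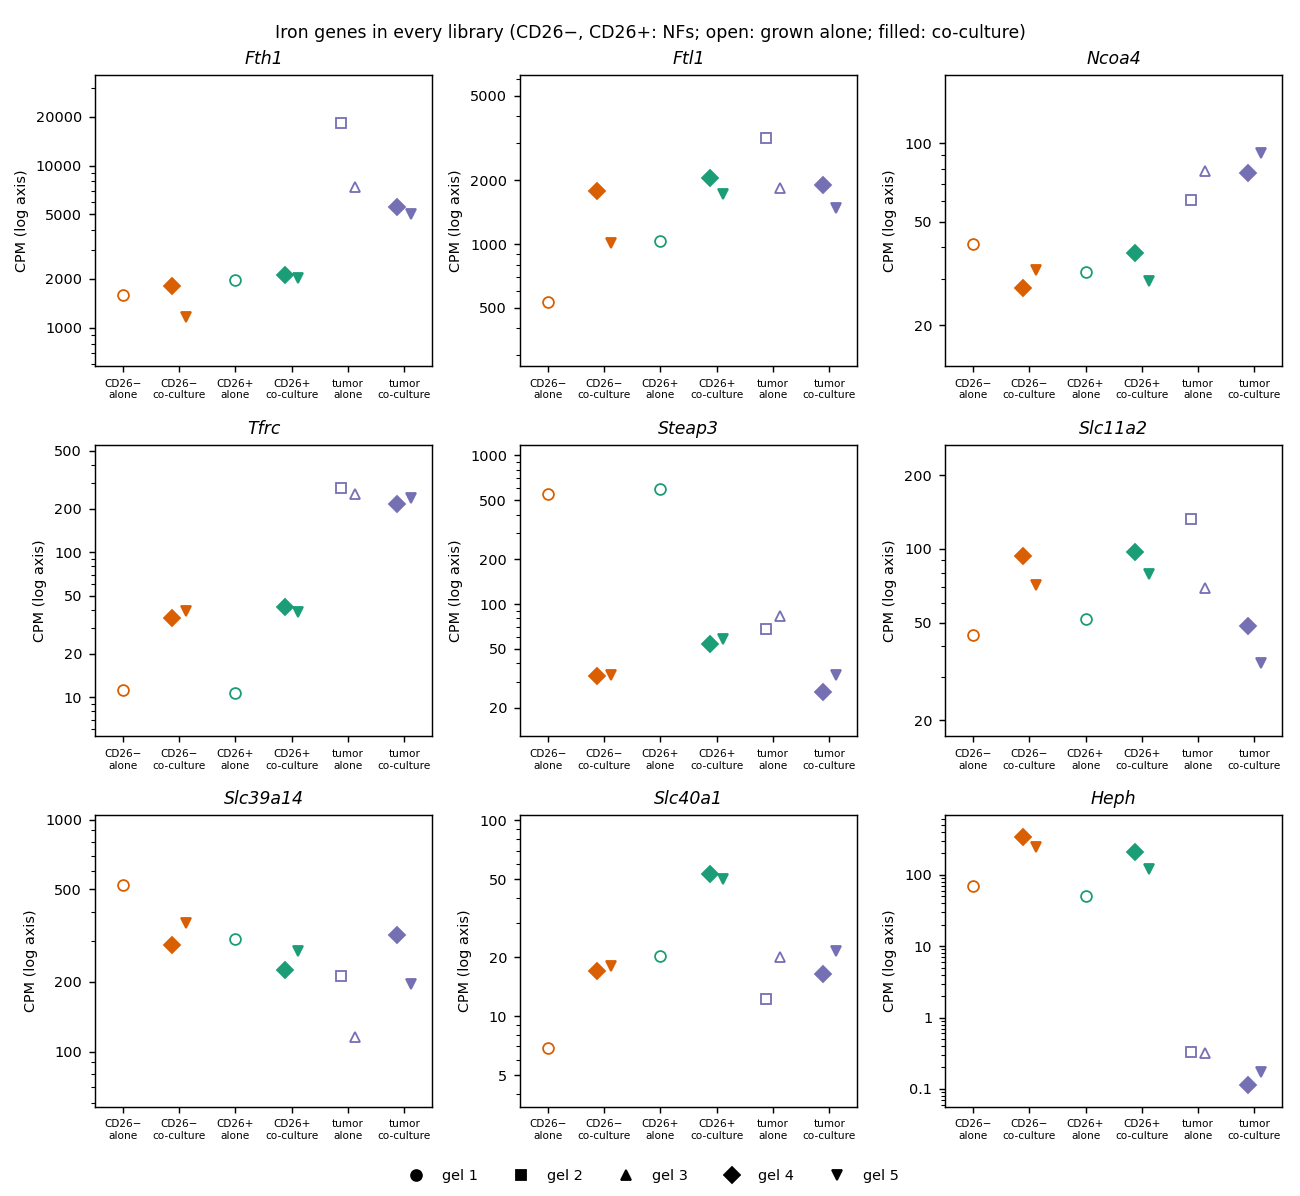
Level of each of the 9 iron genes in every library, in CPM on a log axis, with 1 point per library, shape for the gel, open points for cells grown alone and filled points for co-culture. Steap3 lies at 552 and 590 CPM in NFs alone and at 32.9 to 57.8 CPM in co-cultured NFs, and Tfrc lies above 213 CPM in all 4 tumor libraries.

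Co-culture with tumor cells went with the widest changes in NFs. Between NFs alone and in co-culture, over both subsets, 7 of the 9 genes passed the test (adjusted p under 0.05 by edgeR's quasi-likelihood test): Slc40a1, Ftl1, Tfrc, Heph and Slc11a2 rose, and Steap3 and Slc39a14 fell. Of all genes tested 48.8% passed, so the count of 7 stands against a high background. The median log2 fold change was 0.87 over the 9 genes and 0.02 over all genes. NFs alone came from 1 gel, so culture with tumor cells and what was particular to that gel cannot be told apart. In bulk RNA, fewer cells of a kind and less RNA per cell cannot be told apart either. Tested within CD26− NFs, 6 genes passed (30.8% of all genes), and within CD26+ NFs 6 passed (34.2% of all genes), in both cases Slc40a1, Ftl1, Tfrc, Heph and Slc11a2 higher and Steap3 lower. These 2 comparisons share gels but no library. Each sets 2 co-cultured libraries against 1 library grown alone, so the spread came from the co-cultured libraries of both subsets, and the lone library is assumed to vary like them.

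The subsets differed in fewer genes. Over the 3 gels with NFs, 3 of 9 genes passed, with Slc40a1 higher and Heph and Slc39a14 lower in CD26+ NFs (7.53% of all genes passed). Within co-culture alone 2 of 9 passed, Slc40a1 and Heph (6.01% of all genes). With the gel as a block, since both subsets were sorted from the same gel, 4 of 9 passed in co-culture, adding Steap3 and Slc39a14, while the share of all genes that passed rose to 16.7% (2407 of 14410). The response to co-culture did not pass the test of a difference between CD26+ and CD26− NFs for any of the 9 genes by edgeR (0.376% of all genes passed) or DESeq2. By edgeR, Steap3 was the 1 gene with an unadjusted p under 0.05 there (log2 0.63).

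In tumor cells Fth1, Ftl1, Steap3 and Slc11a2 fell and Slc39a14 rose in co-culture, 5 of the 8 genes that could be tested (22.3% of all genes passed). Heph had too few counts in tumor cells to be tested. The fit holds the line as a term. Without it 0 of 13197 genes passed by edgeR, the 8 included, with adjusted p from 0.0883 (Steap3) to 0.53 (Slc39a14) for these 5 genes. An unadjusted p under 0.05 was found for 3 of the 8, without a share of all genes to set beside it. Between the lines 3 of 8 genes passed, Ftl1, Slc39a14 and Slc11a2, all lower in 10-SJK-221 than in 13-MCB-17 (14.5% of all genes).

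**Figure D2:**
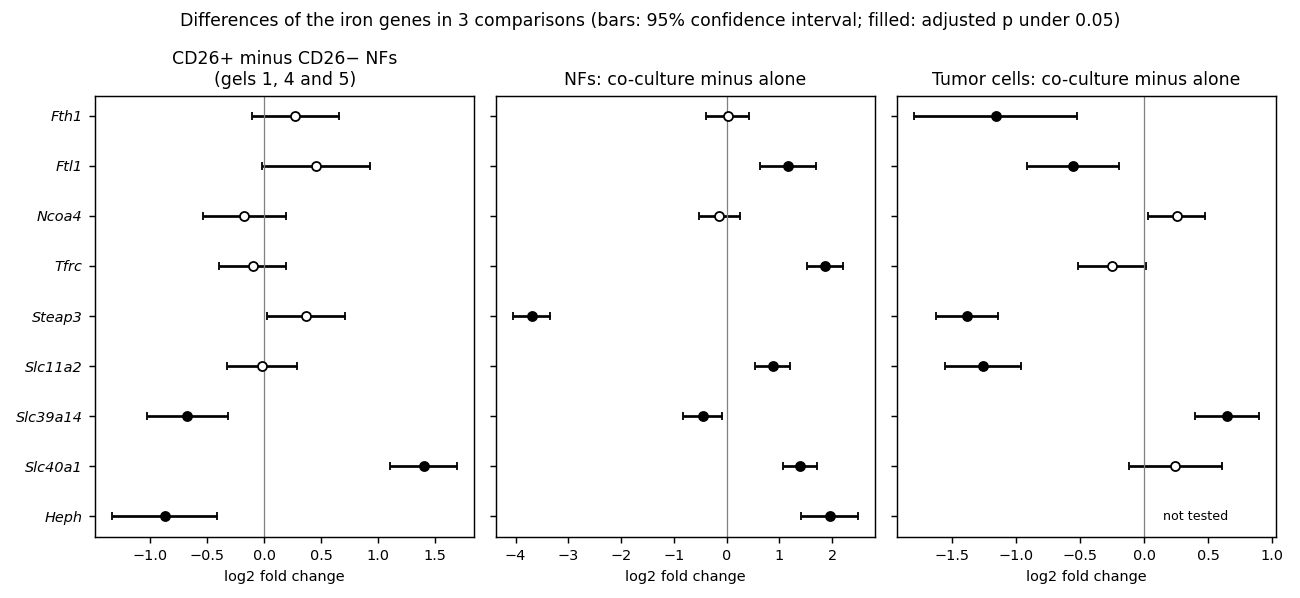
Log2 fold change of the 9 iron genes in 3 comparisons, with points for the estimate, bars for the 95% confidence interval and filled points for an adjusted p under 0.05. Slc40a1 is the 1 gene above 1 between the NF subsets (1.40), and Steap3 is the farthest from 0 between co-cultured NFs and NFs alone (−3.69).

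The ferritin heavy chain gene Fth1 (ENSMUSG00000024661, chr19:9980598-9985098) encodes the subunit that oxidizes iron for storage. It had 1595.5 CPM in CD26− and 1985 CPM in CD26+ NFs alone. Co-cultured CD26− NFs had 1809 and 1160 CPM (gels 4 and 5) and co-cultured CD26+ NFs 2102.5 and 2038 CPM. NFs alone and co-cultured NFs thus overlapped, and the log2 fold change with co-culture was 0.02 (95% confidence interval −0.39 to 0.43). The subsets did not overlap, as every CD26+ library lay above every CD26− library, by 1.24-, 1.16- and 1.76-fold in gels 1, 4 and 5. The fitted subset difference of 0.28 (95% confidence interval −0.11 to 0.66, adjusted p = 0.35) was not past the threshold. Tumor cells were higher in every library, with 18209 CPM (13-MCB-17) and 7391 CPM (10-SJK-221) alone and 5532 and 5044 CPM in co-culture. In 13-MCB-17 grown alone Fth1 took 1.82% of all counts and ranked 1 among all genes. The fall in co-culture was −1.72 on the log2 CPM scale in 13-MCB-17 and −0.55 in 10-SJK-221. The fitted change was −1.16 ± 0.28 (SE, 4 libraries; adjusted p = 0.0191 by edgeR), and DESeq2 gave −1.16 with adjusted p = 0.666.

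The light chain gene Ftl1 (ENSMUSG00000050708, chr7:45457944-45459884) encodes the subunit that favors the mineral core. It had 530 CPM (CD26−) and 1028 CPM (CD26+) in NFs alone. In co-culture it had 1788 and 1010 CPM (CD26−) and 2038 and 1724 CPM (CD26+). Each subset was higher in both co-cultured libraries than alone, by 1.68- to 3.37-fold, and the fitted change was 1.17 ± 0.24 (SE; adjusted p = 0.00294). Within CD26+ NFs the change of 0.91 (adjusted p = 0.0295) lost its call without the library of gel 4 (0.227) or of gel 5 (0.133) and without the low-count filter (0.0636). Within CD26− NFs the change of 1.45 lost its call without the CD26+ library of gel 4 (0.0581). Tumor cells had 3154 and 1845 CPM alone and 1894 and 1475 CPM in co-culture, lower in both lines, with a fitted change of −0.55 ± 0.16 (SE; adjusted p = 0.0369). Line 10-SJK-221 was lower than 13-MCB-17 by −0.64 ± 0.16 (adjusted p = 0.0301). Exons of Ftl1 overlap those of Gm10252 on the other strand and Gm22133 on the same strand, together over 34.6% of the Ftl1 exon bases. Gm10252 had at most 165 counts in a library, and Gm22133 had 0 counts in every library.

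The ratio of the chains was lower in co-culture in both cell types. It depends on the transcript lengths taken and is compared here between libraries only. Per kb of transcript, Fth1 over Ftl1 was 1.95 and 1.25 in CD26− and CD26+ NFs alone and 0.655 to 0.766 in the 4 co-cultured NF libraries. In tumor cells it was 3.74 and 2.60 alone and 1.89 and 2.22 in co-culture, lower in both lines. Tumor libraries in co-culture thus lay above all co-cultured NF libraries. The table lists 11 further Fth and 3 further Ftl rows by symbol, 2 of each with any count, at no more than 0.0272% of Fth1 and 0.0977% of Ftl1.

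Ncoa4 (ENSMUSG00000056234, chr14:32159865-32179855) encodes the receptor that carries ferritin to lysosomes for breakdown. It ranged from 27.9 to 41.1 CPM in NFs, with overlap between cultures and subsets, and from 60.7 to 91.9 CPM in tumor cells, so that the cell types did not overlap. It was lower in NFs than in tumor cells, by −0.77 ± 0.18 grown alone and by −1.18 ± 0.15 in co-culture (log2, SE; adjusted p = 0.00302 and 4.80e-05). Without the CD26+ library of gel 1, the former was −0.53 with adjusted p = 0.0674. Tumor RNA, at the estimates above, would account for 5.43% to 15.6% of Ncoa4 in co-cultured NFs.

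**Figure D3:**
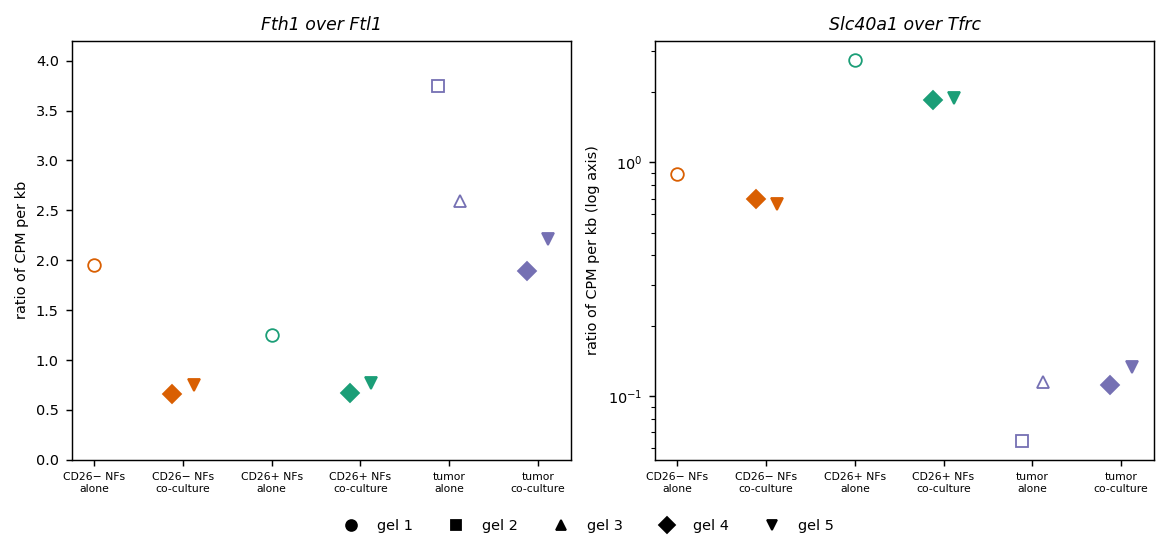
Ratios of CPM per kb of principal transcript in every library, for Fth1 over Ftl1 (linear axis) and for Slc40a1 over Tfrc (log axis), with shape for the gel, open points for cells alone and filled points for co-culture. Co-cultured NFs lie between 0.655 and 0.766 in the former, and all tumor libraries lie at or below 0.133 in the latter.

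Tfrc (ENSMUSG00000022797, chr16:32608920-32632794) encodes transferrin receptor 1, the main route of iron into most cells. It had 11.2 CPM in CD26− and 10.7 CPM in CD26+ NFs alone. Co-cultured CD26− NFs had 35.4 and 39.2 CPM and co-cultured CD26+ NFs 41.8 and 38.4 CPM, all above the NFs alone. The fitted rise was 1.87 ± 0.15 (log2, SE; adjusted p = 1.27e-05). Tumor cells had 275 and 251 CPM alone and 214 and 236 CPM in co-culture, above every NF library. Tumor RNA at the estimated shares would give 11.9% to 31.0% of Tfrc in co-cultured NFs, which leaves 26.5 to 35.8 CPM after subtraction. The gap between NFs and tumor cells was −4.44 ± 0.16 grown alone and −2.33 ± 0.12 in co-culture. The subsets differed by −0.10 (95% confidence interval −0.40 to 0.19), and the change in tumor cells was −0.25 (−0.52 to 0.01), with neither past the threshold.

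Steap3 (ENSMUSG00000026389, chr1:120190757-120272705) encodes an endosomal ferrireductase that works beside the transferrin receptor. NFs alone had 552 CPM (CD26−) and 590 CPM (CD26+). Co-cultured NFs had 32.9 and 33.4 CPM (CD26−) and 53.8 and 57.8 CPM (CD26+), lower than NFs alone without overlap. This fall of −3.69 ± 0.16 (log2, SE; adjusted p = 2.77e-07) was the largest change of the 9 genes in NFs and the 1 that exceeded 2 on the log2 scale over both subsets. Steap3 also fell in tumor cells, from 67.8 to 25.7 CPM in 13-MCB-17 and from 82.6 to 33.3 CPM in 10-SJK-221 (−1.38 ± 0.11, adjusted p = 0.00013). The fall was greater in NFs, with a difference in response of −2.32 ± 0.23 (adjusted p = 5.52e-05). Tfrc and Steap3, which serve the same uptake route, thus moved in opposite directions in NFs.

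Within co-culture Steap3 was higher in CD26+ than in CD26− NFs in both gels, by 1.64- and 1.73-fold. The fitted difference of 0.58 ± 0.17 had adjusted p = 0.0689, and with the gel as a block it was 0.58 with adjusted p = 0.00665 (DESeq2, 0.0351). In gel 1 the subsets were 1.07-fold apart.

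Slc11a2 (ENSMUSG00000023030, chr15:100387898-100425072) encodes the divalent metal transporter DMT1, which moves iron out of endosomes. It had 44.5 and 51.9 CPM in CD26− and CD26+ NFs alone. Co-cultured NFs had 93.9 and 71.1 CPM (CD26−) and 97.0 and 79.1 CPM (CD26+), all higher. In tumor cells it went from 133 to 48.6 CPM in 13-MCB-17 and from 69.0 to 34.3 CPM in 10-SJK-221. It rose by 0.87 ± 0.15 in NFs and fell by 1.26 on the log2 scale in tumor cells (adjusted p = 0.00118 and 0.000463), a difference in response of 2.11 ± 0.23 (adjusted p = 0.000105). NFs were accordingly lower than tumor cells grown alone (−0.85 ± 0.17) and higher in co-culture (1.26 ± 0.15). The former lost its call without the tumor library of gel 2 (−0.62, adjusted p = 0.0622). Line 10-SJK-221 was lower than 13-MCB-17 by −0.81 ± 0.13 (adjusted p = 0.00469). Within a subset the rise lost its call without the library of gel 4, in CD26− NFs (0.79, adjusted p = 0.0794) as in CD26+ NFs (0.65, adjusted p = 0.108).

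Slc39a14 (ENSMUSG00000022094, chr14:70303469-70351425) encodes ZIP14, a plasma membrane importer of iron that is not bound to transferrin, and of zinc and manganese. NFs alone had 523 CPM (CD26−) and 305 CPM (CD26+), and co-cultured NFs had 287 and 358 CPM (CD26−) and 224 and 271 CPM (CD26+). CD26+ NFs were lower than CD26− NFs of the same gel in all 3 gels, at 0.583- to 0.780-fold. The fitted difference of −0.67 ± 0.16 (adjusted p = 0.0362) lost its call when any 1 of 5 of the 6 libraries was left out, CD26− of gel 4 excepted, or gel 5 as a whole (adjusted p = 0.0657 to 0.22). Within co-culture it was −0.56 (adjusted p = 0.115) and with the gel as a block −0.55 (adjusted p = 0.0127). The fall with co-culture over both subsets, −0.45 ± 0.17 (adjusted p = 0.0454), lost its call without the CD26− library of gel 1 (−0.27, adjusted p = 0.39), the CD26− library of gel 4 or 5 (0.136 and 0.0538), the CD26+ library of gel 4 (0.0706), gel 4 as a whole (0.183) or without the low-count filter (0.0506).

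In tumor cells Slc39a14 moved the other way. It had 211 CPM (13-MCB-17) and 116 CPM (10-SJK-221) alone and 318 and 196 CPM in co-culture, higher in both lines by 1.503- and 1.69-fold. The fitted rise was 0.65 ± 0.11 (adjusted p = 0.00392), and the response of NFs differed from it by −1.12 ± 0.24 (adjusted p = 0.00628). Line 10-SJK-221 was lower than 13-MCB-17 by −0.86 ± 0.11 (adjusted p = 0.00161). NFs were higher than tumor cells grown alone by 1.51 ± 0.19 (adjusted p = 4.82e-05). In co-culture the difference was 0.39 (95% confidence interval 0.03 to 0.75, adjusted p = 0.0574), and it passed in 7 of 18 alternatives, among them DESeq2 (adjusted p = 0.0231) and RLE scaling (0.0347).

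Slc40a1 (ENSMUSG00000025993, chr1:45908068-45926523) encodes ferroportin. It had 6.89 CPM in CD26− and 20.4 CPM in CD26+ NFs alone. Co-cultured CD26− NFs had 17.1 and 18.01 CPM, and co-cultured CD26+ NFs had 53.2 and 50.1 CPM. CD26+ NFs were thus higher than CD26− NFs of the same gel in each of 3 gels, by 2.95-, 3.11- and 2.78-fold in gels 1, 4 and 5. Co-cultured libraries were 2.46- to 2.61-fold above the same subset alone. The fitted subset difference was 1.40 ± 0.13 (log2, SE; adjusted p = 0.00121) and the fitted culture difference 1.39 ± 0.15 (adjusted p = 5.60e-05). The response to co-culture was 1.41 in CD26− and 1.38 in CD26+ NFs, a difference of −0.03 (95% confidence interval −0.71 to 0.64).

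Without gel 5 the subset difference in Slc40a1 was 1.47 with adjusted p = 0.0583, in a fit in which 17 genes passed. Within co-culture the difference of 1.38 ± 0.18 (adjusted p = 0.000509) kept its size without the CD26+ library of gel 4 (1.37, adjusted p = 0.151) or gel 5 (1.38, adjusted p = 0.114). In those fits 0 and 2 genes passed in all. Tumor cells had 12.2 and 19.9 CPM alone and 16.5 and 21.6 CPM in co-culture, a change of 0.24 (95% confidence interval −0.12 to 0.61). Their range overlapped that of NFs alone and of co-cultured CD26− NFs and lay below co-cultured CD26+ NFs. NFs differed from tumor cells by −0.25 (95% confidence interval −0.60 to 0.11) grown alone and by 0.88 ± 0.14 in co-culture (adjusted p = 0.000247). The latter was 0.71 with adjusted p = 0.128 without gel 5. Tumor RNA at the estimated shares would give 0.87% to 2.48% of Slc40a1 in co-cultured NFs.

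Set against the import receptor within a library, Slc40a1 over Tfrc per kb was 0.895 in CD26− and 2.75 in CD26+ NFs alone. In co-culture it was 0.701 and 0.667 (CD26−) and 1.85 and 1.89 (CD26+). In tumor cells it was 0.0645 and 0.115 alone and 0.112 and 0.133 in co-culture. The ratio therefore put CD26+ NFs above CD26− NFs in every gel and all NFs above all tumor libraries.

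Heph (ENSMUSG00000031209, chrX:96455359-96574485) encodes hephaestin, the membrane-bound ferroxidase that acts beside ferroportin. It had 70.0 CPM in CD26− and 49.8 CPM in CD26+ NFs alone. Co-cultured NFs had 344 and 247 CPM (CD26−) and 212 and 121 CPM (CD26+), all above NFs alone. The fitted rise was 1.95 ± 0.24 (log2, SE; adjusted p = 0.000145). CD26+ NFs were lower in each gel, at 0.711-, 0.616- and 0.491-fold of CD26− NFs in gels 1, 4 and 5. That subset difference, −0.87 ± 0.21 (adjusted p = 0.0354), lost its call without CD26− of gel 4 (0.125), CD26− of gel 5 (0.0953), CD26+ of gel 5 (0.102) or gel 5 as a whole (0.184). Within co-culture it was −0.999 ± 0.233 (adjusted p = 0.022), a call lost without any 1 of the 4 libraries (adjusted p = 0.0517 to 0.222). The exporter and this ferroxidase thus rose together with co-culture and differed in opposite directions between the subsets.

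Tumor cells had 6 and 5 counts of Heph alone and 2 and 3 counts in co-culture. Over pooled counts per depth, co-cultured NFs were 1658-fold higher than co-cultured tumor cells (exact 95% interval 710 to 5108, counting error only). NF RNA at its estimated share would give more Heph (0.815 and 0.319 CPM) than was measured in these tumor libraries (0.113 and 0.171 CPM).

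Between NFs and tumor cells 8 of 9 genes passed grown alone (63.5% of all genes) and 7 of 9 in co-culture (61.3%). Heph and Steap3 were higher in NFs and Fth1, Tfrc and Ncoa4 lower in both cultures. For Fth1 the log2 difference was −2.59 ± 0.29 alone and −1.42 ± 0.23 in co-culture, and the latter lost its call without the tumor library of gel 5 (−0.79, adjusted p = 0.0515) or gel 5 as a whole (−0.66, adjusted p = 0.0863). Ftl1 was lower in NFs grown alone (−1.55 ± 0.26), and in co-culture the difference was 0.16 (95% confidence interval −0.33 to 0.65). Steap3 was higher in NFs by 3.09 ± 0.18 alone and by 0.77 ± 0.16 in co-culture. The latter missed the threshold without the tumor library of gel 4 (0.0617), gel 4 (0.0562) or gel 5 (0.0969).

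The response to co-culture itself differed between NFs and tumor cells in 8 of 9 genes, Ncoa4 excepted (31.4% of all genes passed). Without any 1 tumor library 6 of the 9 passed (15% to 17.5% of all genes), as without gel 4 (13.9%), and 7 passed without gel 5 (13.3%). It was more positive in NFs for Slc40a1, Fth1, Ftl1, Tfrc, Slc11a2 and Heph and more negative for Steap3 and Slc39a14. For Fth1, 1.17 ± 0.38 (adjusted p = 0.0377), the call was lost without the tumor library of gel 2 (0.57, adjusted p = 0.316) or gel 4 (0.57, adjusted p = 0.33), without gel 4 (0.43, adjusted p = 0.555), and when any 1 of the 6 NF libraries other than CD26− of gel 5 was left out (adjusted p = 0.0565 to 0.096). For Heph it rested on the 2 to 6 counts in tumor cells.

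**Figure D4:**
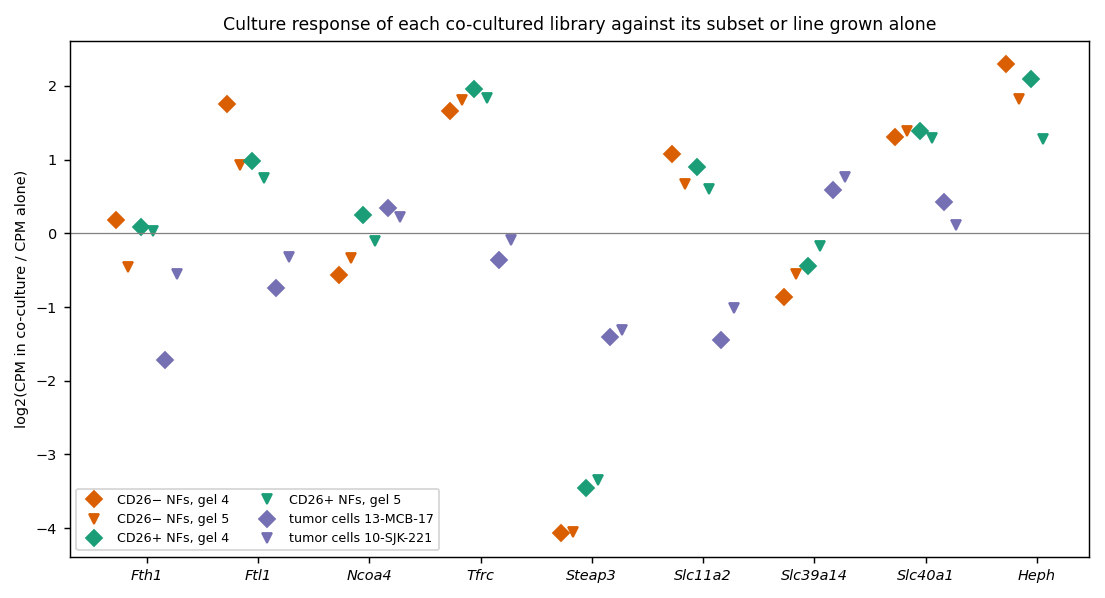
Log2 ratio of CPM in each co-cultured library to CPM of the same NF subset (gel 1) or tumor line (gels 2 and 3) grown alone, for 8 genes in both cell types and Heph in NFs. The 4 NF points lie above 0 for Ftl1, Tfrc, Slc11a2, Slc40a1 and Heph, and both tumor points lie below 0 for Fth1, Ftl1, Tfrc, Steap3 and Slc11a2.

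Among 39 other genes of iron handling 32 could be tested for the subset difference over 3 gels, and 4 were higher in CD26+ NFs and 0 lower (7.53% of all genes passed). Lcn2, which binds iron-carrying siderophores, was higher by 2.99 ± 0.18, the metalloreductase gene Steap4 by 2.53 ± 0.34, Cp (the ferroxidase ceruloplasmin) by 2.03 ± 0.30, and Iscu (a scaffold for iron-sulfur clusters) by 0.79 ± 0.12. Without gel 5 the calls of Steap4, Cp and Iscu were lost (adjusted p = 0.0935, 0.161 and 0.161), in the fit with 17 genes past the threshold. Cp had 63.4 and 131 CPM in CD26− and CD26+ NFs alone, and 20.3 and 24.4 CPM in CD26− against 156 and 149 CPM in CD26+ NFs in co-culture. Cp was thus higher where Heph, the other ferroxidase of the group, was lower. The response of Cp to co-culture differed between the subsets by 1.69 ± 0.31 (adjusted p = 0.0339), a call kept in 3 of 9 alternatives. It was lost without any 1 of the 4 co-cultured NF libraries (adjusted p = 0.0673 to 0.637), with the 1 CPM filter (0.0506) and with no filter (0.121). Tumor cells had 354 and 554 CPM of Cp in co-culture, and their RNA at the estimated shares would give up to 53.8% of Cp in co-cultured CD26− NFs and up to 12% in CD26+ NFs.

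With co-culture, 12 of the 32 genes rose in NFs and 7 fell, beside 3891 higher and 3434 lower of all 15013 genes tested. Without gel 5, 10 rose and 4 fell, while the share of all genes that passed went from 48.8% to 35.5%. Those farthest from 0 were Lcn2 (4.66 ± 0.23), the phagosomal metal transporter gene Slc11a1 (3.85 ± 0.54), Tmprss6 (3.78 ± 0.30), Steap4 (−3.21 ± 0.33), the transferrin gene Trf (2.87 ± 0.23), Bmp6 (2.56 ± 0.40), Slc25a37 (the mitochondrial iron importer mitoferrin 1, 2.28 ± 0.16) and Hfe (−2.20 ± 0.19). Slc11a1 had 0.497 and 0.211 CPM in NFs alone, the latter being 3 counts. Without the CD26− or the CD26+ library of gel 1 the log2 values were 5.14 and 2.88 for Slc11a1, 1.79 and 3.56 for Bmp6, and −2.39 and −4.16 for Steap4. Trf had 6.46 and 8.26 CPM in NFs alone, 39.9 to 70.9 CPM in NFs from co-culture, and at most 0.114 CPM in tumor cells, so carried-over tumor RNA would give at most 0.00574 CPM of it. Tmprss6 and Lcn2 were abundant in co-cultured tumor cells (318 and 466 CPM, 439 and 661 CPM). At the estimated shares tumor RNA would give 81.1% to 132% of Tmprss6 in co-cultured NFs, 54.9% and 61.5% of Lcn2 in CD26− NFs and 10.8% and 15.8% in CD26+ NFs. Hmox1, heme oxygenase 1, which releases iron from heme and was singled out after its values were seen, had 509.7 and 639 CPM in NFs grown alone against 1197 to 1659 CPM in NFs from co-culture.

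In tumor cells 26 of the other iron genes could be tested, and 4 rose and 4 fell with co-culture (22.3% of all genes passed), calls that rest on the line term as above. The call of Slc25a28 was also lost by DESeq2 (adjusted p = 0.155). Tfr2, the second transferrin receptor gene, Tmprss6, Cp and Steap4 rose by 3.09 ± 0.47, 3.01 ± 0.34, 2.81 ± 0.21 and 2.62 ± 0.44. Tfr2 had only 0.163 CPM (13-MCB-17) and 0.573 CPM (10-SJK-221) in tumor cells alone, the former being 3 counts, the most that an observed 0 allows. Slc11a1 (−3.10 ± 0.48), the lysosomal heme transporter gene Slc48a1 (−1.50 ± 0.15), Nfe2l2 (−1.05 ± 0.12) and Slc25a28 (−0.48 ± 0.12) fell. Slc11a1 went from 7.82 to 0.735 CPM in 13-MCB-17 and from 0.573 to 0.171 CPM in 10-SJK-221, the last also being 3 counts. Steap4 thus fell in NFs and rose in tumor cells, and the test of that difference gave −5.87 ± 0.70 (adjusted p = 0.000199). Between the lines 1 of the other iron genes was higher and 4 were lower in 10-SJK-221 (14.5% of all genes passed), with Slc25a37 (−1.61 ± 0.13) among the latter. The higher gene, Flvcr1, lost its call with RLE scaling (adjusted p = 0.064), the 1 CPM filter (0.0527) and DESeq2 (0.323), and Steap2, among the lower, lost its call by DESeq2 (0.133).

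Between NFs and tumor cells 15 of the 32 other iron genes were higher and 12 lower in NFs grown alone, and 16 and 11 in co-culture (63.5% and 61.3% of all genes passed). Grown alone the counts were 10 and 11 without the tumor library of gel 2 and 9 and 10 without that of gel 3 (36.5% and 37.6% of all genes). In co-culture they were 10 and 5 without the tumor library of gel 4, 9 and 8 without that of gel 5, 8 and 5 without gel 4 and 9 and 7 without gel 5 (22.1% to 29.5% of all genes). Trf, Slc39a8 (a metal importer related to Slc39a14), Slc22a17, Hfe, Bmp6 and Flvcr2 had at most 2 counts in every tumor library. In co-culture Slc39a8 and Bmp6 had 0 counts in both tumor libraries, and NFs were at least 102- and 58.8-fold higher, taking the floor of 3 counts per library. The ratio of pooled counts per depth between NFs and tumor cells in co-culture was 935 for Trf (exact 95% interval 259 to 7726), 710 for Slc22a17 (127 to 28084), 79.2 for Hfe (21.7 to 657) and 78.6 for Flvcr2 (21.6 to 652), counting error only. In co-culture each of these 6 lost its call without at least 1 of the 2 tumor libraries (adjusted p = 1).

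The genes whose log2 CPM followed that of Slc40a1 most closely over the 10 libraries were Itpk1, Gm4673 and Tti2 (Pearson r 0.951, 0.948 and 0.947, among 13490 genes with a mean of at least 1 CPM). For Tfrc they were Lama3, Itga3 and Itgb4, with r of 0.998, 0.996 and 0.996. These correlations are a description. The 10 libraries share gels, and for Tfrc they run mainly between NFs and tumor cells.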

How the data were processed

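The deposited table holds raw counts per gene made by the authors, without normalization. Per the submitters' processing notes, reads from stranded mRNA libraries were aligned with HISAT2 2.2.1 to GRCm38. The read counter, its strand setting and its annotation were not given in the sources used here, so counts of overlapping genes are uncertain. IDs matched GENCODE M21 for 55140 of 55486 genes (99.38%), with equal coordinates for 99.42% of these. A further floxed allele of the tumor line is not reported here.

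The 9 genes and all lists were chosen with earlier results of these data known. The quasi-likelihood test of edgeR 4.0.16 (R 4.3.3) was fitted to all genes (TMM scaling, filterByExpr, Benjamini-Hochberg adjustment over all genes, threshold 0.05). NF fits had subset and culture as terms (or 4 groups of the 6 libraries), tumor fits line and culture, and NFs were set against tumor cells over all 10 libraries. Fold changes are TMM-scaled, so they can differ from ratios of CPM. Scripts were tested on simulated counts. CPM, counts scaled to the library total, and carry-over were computed in Python 3.11.15 (pandas 2.3.3). Carry-over is the median, over the 6 epithelial or fibroblast markers, of the ratio of CPM between cell types of a gel. UTR patterns were searched in 1 principal transcript per gene.

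The gel number in the labels marks a shared gel, and co-cultured CD26− and CD26+ NFs of 1 gel deviated together (correlation 0.236 over 13409 genes). NFs came from 1 mixture per gel and nothing in the labels gives separate animals, so p-values do not measure the spread between animals. The main fits with tumor cells hold the line as a term, so the spread between lines is taken out of their p-values. The NF culture fits count both subsets of a gel as separate libraries, and with NFs alone from 1 gel the spread between such gels is not measured. All 9 genes are described. Of the other iron genes, up to 8 per comparison are named by the size of change among those past the threshold with a mean of at least 1 CPM. The settings tried beside these were DESeq2 1.42.0, RLE scaling, a low-count filter of 1 CPM in 2 libraries or none beyond 1 count, an added limit of 2 on the absolute log2 fold change (the study's criterion), a gel block or no line term, and leaving out each library or gel (not in tumor-only fits, where 3 libraries leave no residual degrees of freedom).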

Additional observations from a re-analysis of the deposited data

Results flagged for a closer look

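These results were picked because a test found the response to co-culture to differ between groups. Between NFs and tumor cells, the response (log2, NFs minus tumor cells) differed by 1.13 for Slc40a1, 1.17 for Fth1, 1.71 for Ftl1, 2.10 for Tfrc, −2.32 for Steap3, 3.10 for Heph, −1.12 for Slc39a14 and 2.11 for Slc11a2. Without gel 5 the value for Slc40a1 was 0.96 with adjusted p = 0.126. For Heph the call was lost without any 1 tumor library (adjusted p = 0.099 to 0.184) or gel 4 (0.148), and for Slc39a14 without either library of line 10-SJK-221 (0.0564 and 0.056). Among other iron genes it differed by −2.48 for Tfr2, −5.87 for Steap4, 6.89 for Slc11a1, 4.42 for Lcn2, −3.46 for Cp, −5.10 for Hfe, 2.97 for Slc48a1 and 2.51 for Slc25a37. Tfr2 and Slc11a1 each had a tumor library at the floor of 3 counts (0.163 and 0.171 CPM). Hfe had at most 2 counts in tumor cells, and its call was lost in 13 of 16 alternatives, among them DESeq2 (−4.17, adjusted p = 0.0806), no filter (0.0621) and leaving out either library of line 10-SJK-221 (−2.20 in both, adjusted p = 1). The call of Tfr2 was lost without gel 4 (−2.06, adjusted p = 0.111). Between CD26+ and CD26− NFs the response of Cp differed by 1.69, a call lost without any 1 of the 4 co-cultured NF libraries (1.53 to 1.88, adjusted p = 0.0673 to 0.637), with the 1 CPM filter (0.0506) and with no filter (0.121).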

How the results depend on the processing

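Of 55 results past the threshold for the 9 genes, 31 kept direction and side under every alternative other than the added limit on fold change, 7 lost their call under another processing, 19 without a library or gel, and 0 changed sign. Of these, 8 were in the tumor culture and line comparisons, where leaving out a library leaves no residual degrees of freedom, so only processing was varied there (3 kept). In the other comparisons 28 of 47 were kept. When an absolute log2 fold change over 2 was required too, the number of the 9 genes past both thresholds (share of all genes in parentheses) was 0 (1.28%) for the subsets over 3 gels, 1 (13.6%) for co-culture over both subsets, 0 (1.37%) for the subsets in co-culture, 2 (11.4%) and 1 (13.3%) for culture within CD26− and CD26+ NFs, 0 (3.17%) for culture and 0 (2.11%) for line in tumor cells, 4 (29.6%) and 2 (24.8%) for NFs against tumor cells alone and in co-culture, and 4 (11.6%) for the difference in their response. The gel as a replicate block raised the count for the subsets in co-culture to 4 (2407 of all 14410 genes, 16.7%), and no replicate block (no line term) lowered that for culture in tumor cells to 0 (0 of all 13197 genes). The block changed no other call. Without the low-count filter 5 of the 9 genes passed between the lines, Slc40a1 and Fth1 added (2917 of all 24015 genes, 12.1%). That setting moved the median log2 value of all genes by 0.179 for co-culture in NFs, by −0.104 and 0.234 for NFs against tumor cells alone and in co-culture, and by 0.21 for the difference in their response. DESeq2 moved it by 0.111 for NFs against tumor cells in co-culture. Leaving out 1 library or gel, counts ranged from 0 to 4 for the subsets over 3 gels, 0 to 2 for the subsets in co-culture and 4 to 8 for NFs against tumor cells in co-culture. For the subsets over 3 gels the share of all genes was 0.118% without gel 5 (count 0), 1.39% and 1.64% without a library of gel 5 (count 1) and 9.11% without gel 4 (count 4). For the subsets in co-culture it ran from 0% to 6.88%, and for NFs against tumor cells in co-culture it was 22.1% without gel 5 (count 4). All sign changes were in 13 results near 0 that had not passed. Without 1 library their log2 values ranged, for the subsets over 3 gels, from −0.0882 to 0.0951 (Slc11a2; 0.041 without gel 4, 0.00046 without gel 5). For co-culture over both subsets they ranged from −0.0983 to 0.14 (Fth1; −0.129 without gel 4) and −0.386 to 0.113 (Ncoa4). For the subsets in co-culture they ranged from −0.0605 to 0.678 (Ftl1), −0.185 to 0.0485 (Tfrc), −0.177 to 0.145 (Ncoa4; 0.00068 with the 1 CPM filter) and −0.226 to 0.0882 (Slc11a2). For culture they ranged from −0.35 to 0.205 in CD26− NFs (Fth1) and −0.0667 to 0.214 in CD26+ NFs (Ncoa4). For the difference between these they ranged from −0.116 to 0.0464 (Slc40a1), −0.107 to 0.447 (Fth1) and −0.301 to 0.0124 (Slc11a2). For NFs against tumor cells in co-culture, Ftl1 ranged from −0.0742 to 0.38 (−0.325 without gel 4). The causes were not tested. Where a group was left with 1 library, the fit assumes that it varies like the others. NFs alone had 1 gel, so culture in NFs without gel 1 could not be fitted. Depth limits Heph in tumor cells, at 2 to 6 counts a library, and Tfr2 and Slc11a1 there each had a library at the floor of 3 counts.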
